A study of Mus musculus with 12 samples.

Results

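Among 38072 filtered barcodes of 4 mouse aorta libraries, 469 met a rule that combined Prg4 and Cxcl13 with the further limits given below. Prg4 is the gene of the lubricating proteoglycan lubricin, and Cxcl13 that of a chemokine that draws B cells. These Prg4 and Cxcl13 positive cells were chosen from their own counts. A barcode was taken when it had over 200 genes, over 1000 unique molecular identifiers (UMIs, 1 for each RNA molecule counted) and under 10% mitochondrial UMIs, with at least 2 Prg4 UMIs and at least 1 Cxcl13 UMI. Fewer than 4 of 8 adipocyte genes (Adipoq, Cidec, Plin1, Car3, Retn, Mrap, Adig, Pck1) could be detected, and Ptprc, a leukocyte gene, and Pecam1, an endothelial gene, had to be at 0. There were 0 such cells in the library labelled untreated, 44 in the AS library, 3 in the MTZ-treated library and 422 in the MTZ-preventive library.

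The study asked how methazolamide (MTZ), an inhibitor of carbonic anhydrases, acts on atherosclerosis (AS). All groups were male C57BL/6J ApoE-/- mice, 8 weeks old at the start and followed for 24 weeks. The untreated mice ate a normal diet, and the others ate a high-fat diet (1% cholesterol, 10% fat) for 24 weeks. The AS mice received saline, the MTZ-treated mice took MTZ (25 mg/kg) only in the second 12 weeks, and the MTZ-preventive mice took it for all 24 weeks. Each library pooled the aortas of 6 mice, so 1 library stands for each condition. The spread between mice cannot be measured, no test between conditions was possible, and every interval below is a 95% interval that covers counting error only.

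The library labelled untreated went against its genotype label. Apoe stood at 677 CPM (UMIs of a gene for each 1000000 UMIs of the cells summed) over its filtered cells, against 11.4 CPM in AS, 12.6 CPM in MTZ-treated and 8.46 CPM in MTZ-preventive. The Prg4 and Cxcl13 positive cells held 0 Apoe UMIs in AS and 8 in MTZ-preventive (5.54 CPM). Barcode sequences were shared between the filtered cells of every pair of libraries. The counts ran from 24 for AS and MTZ-treated to 305 for the library labelled untreated and MTZ-preventive. No barcode was a Prg4 and Cxcl13 positive cell in more than 1 library, where so few members leave little room for overlap. The barcodes of 13 MTZ-preventive members also named filtered cells of the library labelled untreated, those of 4 named filtered cells of MTZ-treated and those of 2 named filtered cells of AS. Of the AS members, the barcodes of 3 also named filtered cells of MTZ-preventive and that of 1 a filtered cell of MTZ-treated. The overlap to be had by chance was not worked out, so no conclusion is drawn from these barcode counts.

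Lubricin coats the surfaces of joints, tendon sheaths and serous membranes and lowers friction, and it is made by lining fibroblasts, superficial cartilage cells and mesothelium. CXCL13 binds the receptor CXCR5 on B cells and follicular helper T cells, and it is made by follicular stroma and by fibroblasts and mesothelial cells of fat tissue. The outer layer of the aorta, the adventitia, is rich in fibroblasts and borders on perivascular fat.

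The cells made up 2.0% of filtered cells in AS (44 of 2201, exact binomial interval 1.46 to 2.67%) and 2.59% in MTZ-preventive (422 of 16316, 2.35 to 2.84%). The MTZ-treated share was 0.0416% (3 of 7215, 0.00858 to 0.121%). In the library labelled untreated, 0 of 12340 cells were found (exact interval up to 0.0299%), and a floor of 3 cells is 0.0243%. The shares of AS and MTZ-preventive were not distinguishable at this depth, with a ratio of 1.29 (exact conditional interval 0.947 to 1.81). This depended on the limits, as the ratio was 0.778 (0.650 to 0.937) without the Cxcl13 limit and 1.63 (1.11 to 2.47) with at least 2 Cxcl13 UMIs. Among cells with fewer than 2 of 17 macrophage and neutrophil genes, the ratio was 2.03 (1.17 to 3.84), from 13 of 1003 cells in AS and 400 of 15230 in MTZ-preventive. That limit took away 31 of the 44 AS members but 22 of the 422 MTZ-preventive members. The AS share was 48.1-fold the MTZ-treated share (15.4 to 242) and 82.2-fold the share that the floor of 3 cells gives for the count of 0 in the library labelled untreated, where the exact conditional interval of the ratio began at 64.1. Since these shares come from the counts that chose the cells, they are a description.

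**Figure D1:**
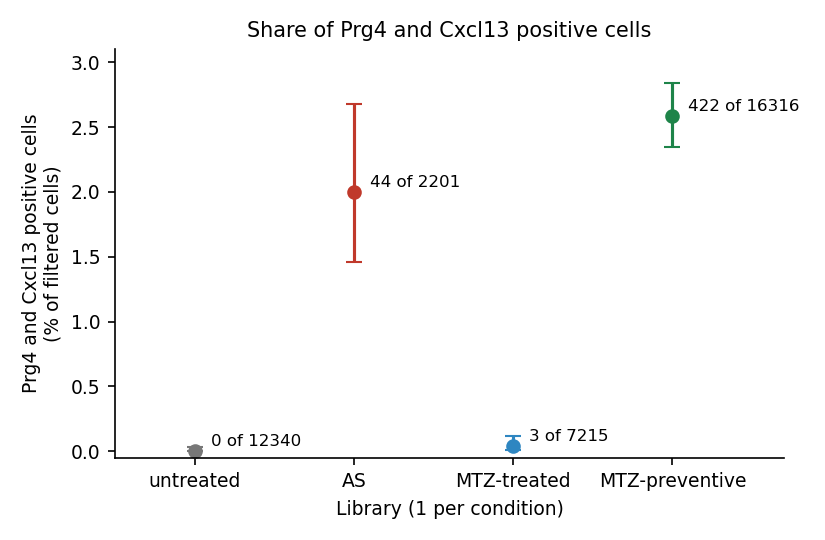
Share of Prg4 and Cxcl13 positive cells among filtered cells (percent, vertical axis) in the 4 libraries, with exact 95% binomial intervals for counting error. AS and MTZ-preventive lie at 2.0% and 2.59% with overlapping intervals, and the other libraries at 0 and 0.0416%.

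The low count in MTZ-treated arose mainly at the Cxcl13 limit. At least 2 Prg4 UMIs were present in 219 MTZ-treated cells, 177 AS cells, 1263 MTZ-preventive cells and 8 cells of the library labelled untreated. Of these, 3, 52, 660 and 0 also had Cxcl13. Without the Cxcl13 limit the shares would be 2.51% in MTZ-treated, 6.41% in AS, 4.98% in MTZ-preventive and 0.0324% in the library labelled untreated. Prg4 was thus found in MTZ-treated cells that lacked Cxcl13 UMIs, whereas both were scarce in the library labelled untreated.

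At the edges of the rule, 157 MTZ-preventive members had exactly 2 Prg4 UMIs while 455 cells with 1 Prg4 UMI met the other limits, and the same counts were 14 and 34 in AS. Exactly 1 Cxcl13 UMI was held by 72 MTZ-preventive members, against 391 cells with none, and by 15 against 97 in AS. Cxcl13 was unevenly spread over the members. Its median was 3 UMIs per cell in AS (lowest 1, highest 206) and 6 in MTZ-preventive (1 to 546), and at least 10 UMIs were held by 12 and 166 cells. Prg4 had a median of 3.5 UMIs in AS (2 to 22) and 3 in MTZ-preventive (2 to 73). The 3 MTZ-treated cells had 10, 4 and 3 Prg4 UMIs beside 1, 21 and 2 Cxcl13 UMIs.

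**Figure D2:**
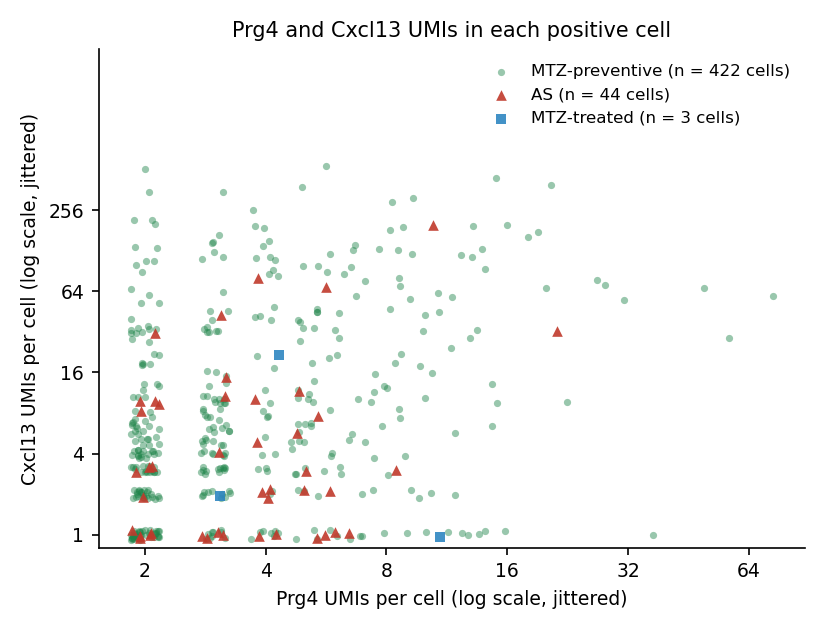
Prg4 UMIs (horizontal) against Cxcl13 UMIs (vertical) in each positive cell, both on log scales and jittered, by library. Most cells lie at 2 to 5 Prg4 UMIs, and Cxcl13 runs from 1 to 546 UMIs.

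Free RNA in the droplets can give a few UMIs of both genes to other cells, so the same measures were taken in Ptprc-positive cells, which were assumed to lack them. These were all filtered cells with a Ptprc UMI. They summed to 2122 CPM of 14 fibroblast genes in AS and 4463 CPM in MTZ-preventive. Whether stromal cells were among them was not tested, so they are not a clean measure of free RNA. After each cell was thinned to 1000 UMIs, Cxcl13 was seen in 3.95% of Ptprc-positive cells in AS and 14.1% in MTZ-preventive. Prg4 was seen in 7.89% and 6.06% of them. Every member had Cxcl13 by the rule, so the members' own shares after thinning, 95.5% and 89.6%, do not show how far they stand above free RNA. Unthinned, the shares of Ptprc-positive cells were 6.58% and 19.1% for Cxcl13 and 9.21% and 9.09% for Prg4. Ptprc-positive cells had a median of 1466.5 and 2044 UMIs per cell, while members had a median of 1153.5 and 1910.5. The Cxcl13 and Prg4 limits were both met by 0 of 76 Ptprc-positive cells in AS and by 47 of 1849 in MTZ-preventive (2.54%, 1.87 to 3.37%), compared with 52 of 2201 (2.36%) and 660 of 16316 (4.05%) of all filtered cells. How many members near the limits met them through free RNA was not tested, and the cells with 10 or more Cxcl13 UMIs are described separately below. Thinning every cell to 1000 UMIs before the rule left 36 members in AS (1.64%) and 238 in MTZ-preventive (1.46%), which turned the ratio between them to 0.892.

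The members carried fibroblast genes. Dcn, which encodes the collagen-binding proteoglycan decorin, was found in 41 of 44 AS members (93.2%) and 411 of 422 MTZ-preventive members (97.4%). Its level was 6538 CPM (exact Poisson interval 6001 to 7110) in AS and 7204 CPM (7066 to 7344) in MTZ-preventive, against 354 and 624 CPM in adipocyte-marker cells (at least 4 of the 8 adipocyte genes) and 993 and 1009 CPM in Ptprc-positive cells. Fewer members held several fibroblast genes. At least 3 of Col1a1, Col1a2, Col3a1, Dcn, Lum and Pdgfra were detected in 26 of 44 AS members (59.1%, 43.2 to 73.7%). The count in MTZ-preventive was 307 of 422 members (72.7%, 68.2 to 76.9%). All 14 genes of a pan-fibroblast list had UMIs in the members of both libraries, and the list summed to 16333 CPM in AS and 21395 CPM in MTZ-preventive. Gsn, which encodes the actin-severing protein gelsolin, and Ly6a, the gene of the surface antigen Sca-1 of adventitial and other progenitor-type fibroblasts, were also abundant, at 5748 and 3880 CPM in AS and 7267 and 2964 CPM in MTZ-preventive. Mt1, a metallothionein gene, was at 22679 CPM in AS members and 17457 CPM in MTZ-preventive members, 1.92-fold (1.83 to 2.02) and 2.27-fold (2.24 to 2.30) the other Dcn-rich cells described below, though 1.40-fold in AS without its deepest cell. The genes of a joint lining-type lubricin fibroblast list summed to less in the members than in those cells. Over 10 such genes the members had 1796 CPM in AS, where Clic5, Tspan15, Tspan2 and Rab37 were at 0, and 2627 CPM in MTZ-preventive, against 5133 and 3206 CPM in those Dcn-rich cells. Crip1, which encodes a small LIM domain protein, held 1365 and 1543 CPM of the members' sums and 4277 and 2307 CPM of those of the Dcn-rich cells, and Has1 ran the other way in MTZ-preventive, at 726 CPM in members and 377 CPM in Dcn-rich cells.

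Mesothelial genes were nearly absent. Of Msln, Upk3b, Lrrn4 and Krt19, the genes named for this check, at least 2 were detected in 0 of 44 AS members and 11 of 422 MTZ-preventive members (2.61%, 1.31 to 4.62%). Msln, which encodes mesothelin, had 0 UMIs in AS and 19 UMIs (13.2 CPM) in MTZ-preventive. In AS a floor of 3 UMIs is 35.9 CPM, and the exact interval of a count of 0 reaches 44.2 CPM. Upk3b stood at 1 and 20 UMIs (12 and 13.8 CPM). Over 14 mesothelial genes the sum was 24 CPM in AS, where 12 were at 0, and 76.9 CPM in MTZ-preventive, where Krt8 was at 0. All other cells summed to 51.0 CPM in AS and 104.9 CPM in MTZ-preventive. Other cells with at least 3 Dcn UMIs summed to 22.3 and 232.9 CPM. In the MTZ-preventive library, cells with at least 2 of the 4 genes made up 2.61% of members and 0.642% of other cells, and they form a small minority of the members.

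Adipocyte genes of the rule were low, as it required, and genes of other cell types were present at different levels. The 8 adipocyte genes summed to 311 CPM in AS members and 211 CPM in MTZ-preventive members, against 10627 and 7391 CPM in adipocyte-marker cells. The 16 other genes of mature adipocytes summed to 2455 and 1666 CPM, led by Cfd, against 50910 and 40896 CPM in adipocyte-marker cells. The 8 smooth muscle genes summed to 2838 and 1994 CPM in members, against 5448 and 9560 CPM in all other cells. The 10 endothelial genes summed to 407 and 250 CPM, led by Egfl7, and the 7 hepatocyte genes to 0 and 1.38 CPM. The 10 macrophage and 7 neutrophil genes summed to 2886 and 6969 CPM in AS members, led by C1qb and S100a9, but to 66.5 and 65.8 CPM in MTZ-preventive members. Of the AS members, 31 of 44 (70.5%) had at least 2 of these 17 genes, compared with 22 of 422 (5.21%) in MTZ-preventive. All other cells of the AS library, leukocytes included, held 2523 CPM of the macrophage genes and 7919 CPM of the neutrophil genes, against 419 and 196 CPM in MTZ-preventive. Other AS cells with at least 3 Dcn UMIs held less than the AS members, 788 and 2354 CPM, whereas in MTZ-preventive such cells held 100.1 and 62.8 CPM, beside 66.5 and 65.8 CPM in the members. The part of this leukocyte RNA in the AS levels of other genes was not tested. Doublets were called among 2 of 44 AS members (4.55%) and 91 of 422 MTZ-preventive members (21.6%), compared with 1.77% and 13.1% of all filtered cells. The number called in each library was set in advance by its number of filtered cells. The 1.77% and 13.1% were therefore not measured, and doublet shares cannot be compared between the libraries.

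Of the 5 genes given to mark these cells, Prg4 and Cxcl13 were set by the rule and Serpina3n led as well, but Cyp2e1 and Hp did not. Serpina3n, which encodes a serine protease inhibitor of the acute phase, reached 2634 CPM in AS and 3445 CPM in MTZ-preventive members, or 4.64-fold (4.02 to 5.33) and 6.27-fold (6.08 to 6.46) the level in all other cells. Cyp2e1, a cytochrome P450 gene, stood at 83.8 and 146 CPM in members but at 2123 and 3406 CPM in adipocyte-marker cells. Hp, which encodes the hemoglobin-binding protein haptoglobin, was at 4646 and 1480 CPM in members and at 9467 and 14246 CPM in adipocyte-marker cells. Compared with other cells holding at least 3 Dcn UMIs, however, Hp was 3.64-fold higher in AS members (3.22 to 4.11) and 1.41-fold higher in MTZ-preventive members (1.35 to 1.48). Hp was also higher in members with 10 or more Cxcl13 UMIs than in those with 1, by 2.56-fold (1.85 to 3.6) and 1.67-fold (1.46 to 1.92).

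Leading genes were ranked by the ratio of members to all other cells, taking the lower of the AS and MTZ-preventive ratios, among 614 genes with a UMI in at least 25% of members of both libraries. After Cxcl13 and Prg4 came Plac8, which encodes a small cysteine-rich protein, and C7, a terminal complement component. Plac8 was at 922 CPM in AS and 878 CPM in MTZ-preventive members, and C7 at 826 and 561 CPM, against 165.8 and 166.6 CPM and 79.5 and 117 CPM in all other cells. Genes of secreted or extracellular proteins in the list included Apod (a lipocalin), Lbp (which binds bacterial lipopolysaccharide), Slit3 (a guidance ligand), Mmp3 and Mmp2 (matrix metalloproteinases), Bmp1 (a procollagen protease), Rnase4, Igfbp4 and the chemokine Cxcl12. Complement genes were C7, Cfb, Serping1, C3 and C1ra. Surface receptors were Il1r1, the signalling receptor of interleukin 1, Tgfbr3 and Cd302. As the cells were picked by Prg4 and Cxcl13, this ranking describes them and tests nothing.

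A single deep cell weighed on the AS levels. It had 11741 UMIs and held 34.0% of the Cxcl13 UMIs of all AS members, 37.7% of Serpina3n, 53.7% of Cfb and 70.2% of Saa3. Without it Cxcl13 was at 5573 CPM instead of 7256 CPM, Serpina3n at 1909 instead of 2634 CPM and Cfb at 265 instead of 491 CPM. In MTZ-preventive, no cell held more than 5.38% of the UMIs of Cxcl13, Serpina3n or Cfb.

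The sequences before the gene starts of leading genes were read from RefSeq (GRCm38.p6, the assembly behind mm10), which held 16 of the 25 leading genes in its promoter table. Motif letters were sought on both strands in the 250 bases before each start. The C/EBP-type letters TTGCNNAA, named for a family of factors that act in acute-phase and fat cell genes, were found in 6 of 16 leading genes (Il1r1, Cd302, Cxcl13, Mt2, Mmp3 and C3), or 37.5%, and in 9.56% of all 32851 promoters in the table. The TATA box core TATAAA was found in 4 of 16 (Cxcl13, Mmp3, Igfbp4 and C7), or 25%, against 12.4% of all promoters. The STAT-type letters TTCNNNGAA matched in 1 of 16 (C7), or 6.25%, against 7.02%. Matches of different motifs may share bases, and a match describes letters, not binding. The sequences of Cxcl13, Mmp3 and C3 are shown, as they hold the C/EBP-type letters and belong to the chemokine, matrix and complement genes of the list, with matches in capitals.
Cxcl13, chr5:95956689-95956938, plus strand: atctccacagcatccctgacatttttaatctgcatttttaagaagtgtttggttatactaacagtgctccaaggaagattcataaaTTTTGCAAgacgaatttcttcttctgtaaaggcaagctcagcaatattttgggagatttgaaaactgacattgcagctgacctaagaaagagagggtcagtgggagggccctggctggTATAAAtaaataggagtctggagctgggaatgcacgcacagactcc
Mmp3, chr9:7445572-7445821, plus strand: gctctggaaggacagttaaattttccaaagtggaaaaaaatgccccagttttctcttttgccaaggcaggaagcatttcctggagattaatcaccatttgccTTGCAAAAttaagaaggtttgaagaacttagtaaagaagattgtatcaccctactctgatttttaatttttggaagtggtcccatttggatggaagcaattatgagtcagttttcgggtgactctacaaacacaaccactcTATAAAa
C3, chr17:57228137-57228386, minus strand: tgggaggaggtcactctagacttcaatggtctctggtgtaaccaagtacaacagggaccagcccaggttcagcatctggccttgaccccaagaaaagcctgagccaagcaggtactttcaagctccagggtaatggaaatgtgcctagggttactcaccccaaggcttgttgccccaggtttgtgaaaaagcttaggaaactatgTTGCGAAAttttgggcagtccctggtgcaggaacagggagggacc
In Cxcl13 the capitals mark a C/EBP-type match beginning 164 bases before the start and a TATA box core beginning 46 bases before it. In Mmp3 they mark a C/EBP-type match at 148 bases and a TATA box core at 7 bases before the listed start, and in C3 a C/EBP-type match at 45 bases.

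Comparison with other fibroblast-type cells shows which genes went beyond that background. Cells with at least 3 Dcn UMIs that were not members numbered 300 in AS and 3936 in MTZ-preventive. Of 1147 genes compared, 9 (0.785%) were at least 2-fold higher in members in both libraries and 8 (0.697%) at least 2-fold lower. The 9 were Cxcl13 and Prg4, which the rule used, Serpina3n and its close relative Serpina3m, Saa3, Plac8, Pcsk5, Il33 and Mt2. Saa3, which encodes the acute-phase protein serum amyloid A3, was 17.0-fold higher in AS (14.3 to 20.3) and 3.23-fold higher in MTZ-preventive (2.87 to 3.62), and 5.90-fold higher in AS without the deep cell. Ptprc-positive cells of AS had 2057 CPM of Saa3, above the 1686 CPM of the AS members without the deep cell. Serpina3n was 2.60-fold (2.22 to 3.03) and 4.07-fold (3.93 to 4.21) higher, and in AS without the deep cell 1.88-fold. Because Serpina3m resembles Serpina3n in sequence, reads may have been split between them, and its 2.16-fold and 4.37-fold ratios are uncertain.

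Pcsk5, which encodes a proprotein convertase, was 3.45-fold higher in AS (1.96 to 5.85) and 2.67-fold higher in MTZ-preventive (2.33 to 3.05). Plac8 was 2.60-fold and 2.39-fold higher. Il33, the gene of an alarmin cytokine held in stromal nuclei, was 2.23-fold higher in AS (1.24 to 3.8) and 2.17-fold higher in MTZ-preventive (1.91 to 2.46), and Mt2, a metal-binding metallothionein gene, 2.09-fold and 2.27-fold. Without the deep cell the AS ratios of Il33, Mt2 and Serpina3m were 1.87, 1.73 and 1.08, so 4 of these genes, with Serpina3n, were past 2-fold in both libraries only with that cell. The 5 that remained were Prg4, Cxcl13, Plac8, Saa3 and Pcsk5.

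Of the 8 lower genes, Eln was the only one among 19 collagen and matrix genes tested, and none belonged to the 14 pan-fibroblast genes. The typical gene of both lists was nonetheless lower in members than in the Dcn cells, more so in AS. The median log2 ratio was -1.79 in AS and -0.48 in MTZ-preventive for collagen and matrix genes. For pan-fibroblast genes it was -1.44 and -0.55, and over all genes compared -0.04 and -0.13. Dcn, which chose the comparison cells, belongs to both lists, and members had no Dcn limit. That choice favours such genes in the Dcn cells, and its part in these medians was not tested. Eln, which encodes elastin, was 4.75-fold lower in AS members and 2.27-fold lower in MTZ-preventive members than in the Dcn cells. Sfrp2, a Wnt antagonist gene, was 4.29-fold and 2.55-fold lower, and Igfbp5, which binds insulin-like growth factors, 3.05-fold and 2.45-fold lower. The others were Htra1, Islr, Pdlim2, Thy1 and Tppp3. Without the deep cell 6 of the 8 remained, and Islr and Tppp3 were 1.74-fold and 1.91-fold lower in AS. Col1a1, which encodes the main fibrillar collagen chain, was at 371 CPM in AS members and 3532 CPM in the Dcn cells, but at 1288 and 1964 CPM in MTZ-preventive, so its shortfall was past 2-fold in AS alone. Clec3b and Pi16, genes of adventitial fibroblasts, stood at 826 and 862 CPM in AS members and at 1291 and 760 CPM in MTZ-preventive members, against 1637 and 853 CPM and 2675 and 1481 CPM in the Dcn cells.

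When the comparison cells were chosen by at least 4 of Col1a1, Col1a2, Col3a1, Dcn, Lum and Pdgfra instead, 16 of 1184 genes (1.35%) were at least 2-fold higher in members and 36 (3.04%) lower. The added higher genes were Apod, Cxcl14, Fgl2, Ifi207, Il1r1, Mt1 and Xdh, with Pcsk5, Plac8, Saa3, Il33 and both Serpina3 genes again among them. Several of these rested on 1 AS cell, which was not the same cell for each gene. Without the AS cell that held most of its UMIs, the AS ratio was 1.71 for Cxcl14, 1.86 for Il1r1, 1.58 for Mt1, 1.62 for Il33 and 1.30 for Serpina3m, all under 2-fold. Since that choice favours collagen-rich cells, the collagens among the 36 say nothing about the members.

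**Figure D3:**
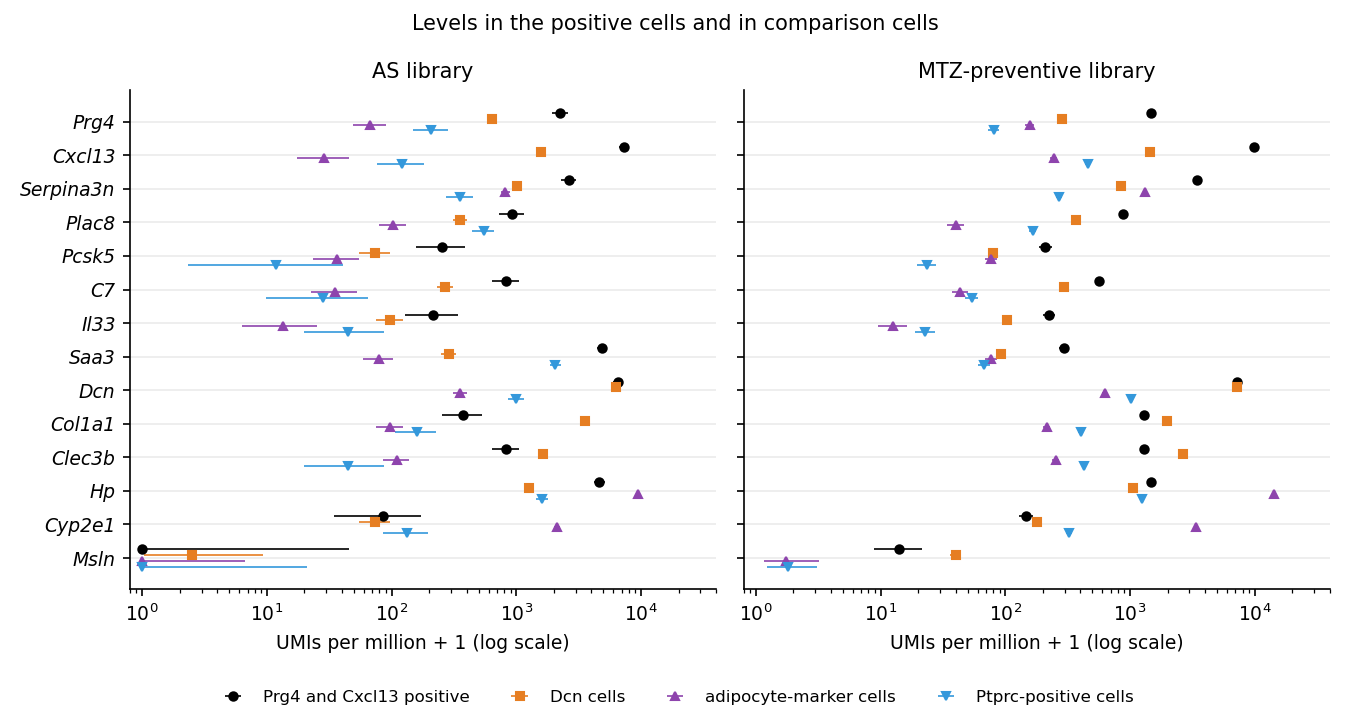
Levels of 14 genes (CPM + 1, log scale) in Prg4 and Cxcl13 positive cells, in other cells with at least 3 Dcn UMIs, in adipocyte-marker cells and in Ptprc-positive cells, for the AS (left) and MTZ-preventive (right) libraries, with exact Poisson intervals. Serpina3n, Plac8, Pcsk5 and Saa3 are highest in the positive cells in both libraries, Dcn matches the Dcn cells, and Hp and Cyp2e1 are highest in adipocyte-marker cells. In AS, Saa3 is highest in the positive cells only with the deep cell, and without it Ptprc-positive cells are higher.

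The members were not uniform, and some other genes differed with their Cxcl13 content. In MTZ-preventive the bands held 72 cells with 1 Cxcl13 UMI, 184 cells with 2 to 9 and 166 cells with 10 or more, with a median of 1794.5, 1428 and 4284.5 UMIs per cell. A deeper cell reaches 10 UMIs more easily, so depth and Cxcl13 level cannot be fully told apart between bands. In the lowest band Cxcl13 stood at 285 CPM, below the 457 CPM of Ptprc-positive cells and the 615 CPM of all other cells of that library. Serpina3n was at 1163 CPM, 2682 CPM and 4412 CPM in the 3 bands, and at 1428 CPM in the 391 cells that met every limit but had no Cxcl13. The cells with 1 Cxcl13 UMI thus had no more Serpina3n than those with none, and those with 10 or more had 3.79-fold more than those with 1 (3.37 to 4.29).

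Apod, at 490 CPM, 1951 CPM and 2542 CPM, and Plac8, at 328 CPM, 607 CPM and 1145 CPM, followed the same order. The ratio of the highest to the lowest band was 5.18 for Apod (4.32 to 6.26), 3.49 for Plac8 (2.78 to 4.42), 2.82 for C7 (2.17 to 3.73) and 2.29 for Mt2 (2.08 to 2.53). Among chemokines and inflammatory genes it was 3.55 for Ccl2, which draws monocytes (3.0 to 4.22), 3.19 for Cxcl1, which draws neutrophils (2.52 to 4.08), and 2.42 for Tnfaip6, which binds hyaluronan (2.02 to 2.91). Such ratios depend on the lowest band. Ccl2 was at 593 CPM there and 2107 CPM in the highest band, but at 1167 CPM in the 391 cells with no Cxcl13. Prg4, which the rule used, stood at 1293 CPM, 1966 CPM and 1335 CPM in the 3 bands, highest in the middle band, where cells were shallowest. Not every leading gene followed Cxcl13. Mmp3 was at 1808 CPM, 382 CPM and 1512 CPM, lowest in the middle band. The ratio of the highest to the lowest band was 0.988 for Mmp2 (0.810 to 1.21), 0.990 for Tgfbr3 (0.729 to 1.36) and 0.770 for Bmp1 (0.564 to 1.06).

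Contractile and collagen genes ran the other way. Acta2 and Tagln, genes of smooth muscle actin and transgelin, were at 1827 and 1713 CPM in cells with 1 Cxcl13 UMI and at 174 and 198 CPM in those with 10 or more, or 10.5-fold (8.74 to 12.8) and 8.65-fold (7.23 to 10.4) lower. Pi16 was 3.85-fold lower (3.35 to 4.43), Col1a1 3.48-fold (3.15 to 3.84), Clec3b 2.85-fold (2.57 to 3.16) and Col3a1 2.58-fold (2.36 to 2.82). In cells with no Cxcl13, Col1a1 was at 1648 CPM, against 3168 CPM at 1 UMI and 911 CPM at 10 or more. Col3a1 was at 2336, 3509 and 1360 CPM in the same order. Pi16 was instead highest in the cells with none, at 2556, 1736 and 451 CPM. Genes of adipocytes and leukocytes fell as well, Cfd 3.43-fold (2.98 to 3.95), Cd74 2.62-fold (2.04 to 3.37) and Fabp4 1.20-fold (1.08 to 1.34). The interval of Lyz2 included 1 (ratio 0.638, 0.226 to 2.05), whereas Hp was higher, as given above. In AS the bands held only 15, 17 and 12 cells. Serpina3n was at 1320 CPM, 2376 CPM and 3494 CPM there, but the deep cell belonged to the highest band, and without it the 11 other cells had 1748 CPM, less than the middle band and 1.32-fold the lowest (0.778 to 2.31). The order seen in MTZ-preventive was thus carried in AS by 1 cell. Acta2 was at 631 CPM, 1188 CPM and 280 CPM. The ratio of the highest to the lowest AS band was 3.41 for Mt2 (2.30 to 5.22), 2.44 for C7 (1.07 to 6.50) and 1.86 for Plac8 (0.941 to 4.01), and without the deep cell 2.58 (1.69 to 4.04), 3.11 (1.34 to 8.38) and 1.52 (0.71 to 3.45). Tagln was 1.95-fold lower in the highest than in the lowest AS band (1.01 to 3.79), and its ratio without the deep cell was 0.762 (0.393 to 1.48). Cfd, Fabp4 and Lyz2 were lower in the highest AS band too, by 5.58-fold (3.48 to 9.22), 5.20-fold (3.37 to 8.22) and 2.62-fold (1.35 to 5.16). The Cd74 ratio was 0 (0 to 0.414). The AS intervals of the other genes included 1, with ratios of 0.812 for Apod (0.412 to 1.66), 0.576 for Ccl2 (0.238 to 1.42), 1.46 for Cxcl1 (0.261 to 14.8), 1.30 for Tnfaip6 (0.312 to 7.6), 0.443 for Acta2 (0.169 to 1.15), 1.04 for Col1a1 (0.401 to 3.03), 1.02 for Col3a1 (0.652 to 1.64), 0.999 for Pi16 (0.572 to 1.80) and 1.66 for Clec3b (0.8 to 3.76). Without the deep cell the ratio of Col3a1 was 0.314 (0.150 to 0.621). The AS intervals of Cxcl1 and Tnfaip6 also include their MTZ-preventive ratios.

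**Figure D4:**
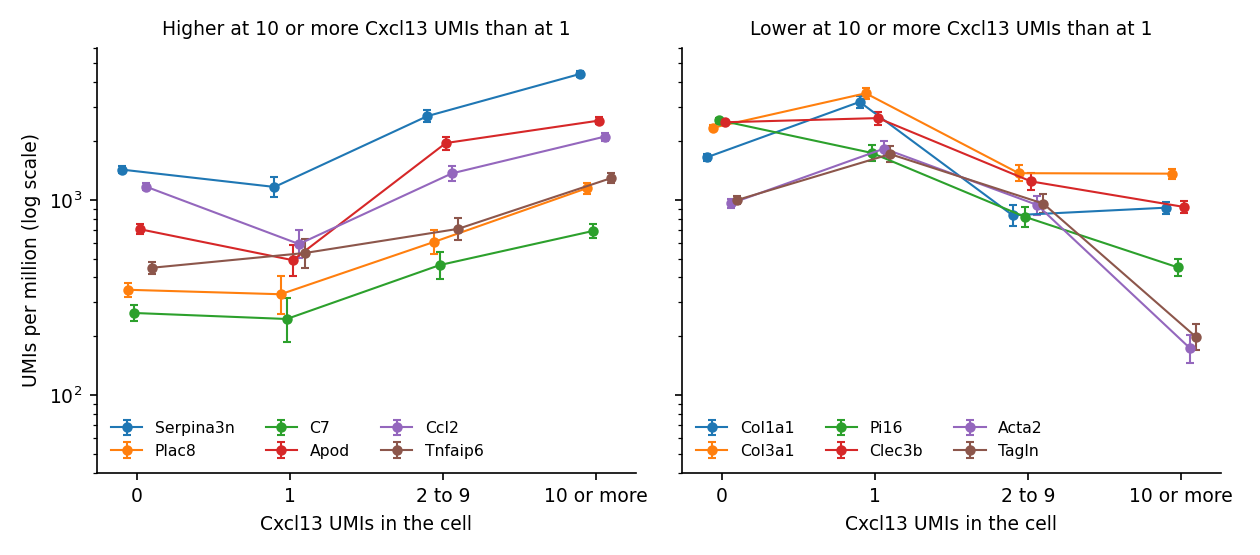
Levels (CPM, log scale) in MTZ-preventive cells by their Cxcl13 UMIs, for 6 genes higher (left) and 6 lower (right) at 10 or more UMIs than at 1, with exact Poisson intervals. The cells at 0 met every other limit but are not members. Serpina3n goes from 1163 CPM at 1 UMI to 4412 CPM at 10 or more, and Acta2 from 1827 to 174 CPM.

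Many cells rich in Cxcl13 had little Prg4. At least 10 Cxcl13 UMIs with under 2 Prg4 UMIs, the other limits met, were found in 358 MTZ-preventive cells and 12 AS cells. The MTZ-preventive cells with under 2 Prg4 UMIs were shallower, with a median of 2203.5 UMIs against 4284.5 in the 166 members of the highest band, and a deeper cell reaches 2 Prg4 UMIs more easily, so depth and Prg4 cannot be fully told apart here either. Compared with these, the 166 MTZ-preventive members with 10 or more Cxcl13 UMIs had 4.65-fold more Mmp3 (4.15 to 5.22), 2.97-fold more Serpina3n (2.80 to 3.14), 2.97-fold more Pcsk5 (2.31 to 3.85) and 2.10-fold more Ccl2 (1.95 to 2.26). They had 4.43-fold less Penk, which encodes an enkephalin precursor (3.67 to 5.38), 3.59-fold less Igfbp3 (3.04 to 4.26), 2.66-fold less Clec3b (2.46 to 2.88) and 2.25-fold less Ccl11, which draws eosinophils (1.89 to 2.70). C7, Lbp and Plac8 were 1.69-fold, 1.66-fold and 1.30-fold higher with Prg4, and Cxcl12 was 1.31-fold lower. In AS, with 12 cells in each set, the ratio was 0.617 for C7 (0.390 to 0.965), opposite to MTZ-preventive, 0.611 for Lbp (0.303 to 1.20), 0.875 for Plac8 (0.559 to 1.37) and 0.553 for Cxcl12 (0.360 to 0.840). It was 0.830 for Serpina3n (0.646 to 1.07), or 0.415 without the deep cell (0.287 to 0.59), 0.655 for Mmp3 (0.164 to 2.40) and 5.04 for Pcsk5 (1.10 to 46.8, on 11 and 2 UMIs). The 4 lower genes were lower in AS as well, by 4.91-fold for Penk (1.02 to 46.7), 54.6-fold for Igfbp3 (9.35 to 2198, on 1 and 50 UMIs), 2.44-fold for Clec3b (1.61 to 3.77) and 3.64-fold for Ccl11 (1.41 to 11.1), and for Penk the ratio without the deep cell was 0.303 (0.0315 to 1.46).

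The last comparison set MTZ-preventive members against AS members, the 2 libraries with enough cells. Of 1363 genes with at least 100 CPM in either, 127 (9.32%) were at least 2-fold higher in MTZ-preventive and 136 (9.98%) at least 2-fold lower, on the log2(CPM + 1) scale, with a median log2 ratio of -0.08. Of the genes past 2-fold, 48.3% were higher. With edgeR's TMM scaling the median shifted to 0.33 and 80% of the genes past 2-fold were higher. With 44 AS cells and 83513 AS UMIs, many of these ratios rest on few counts, and a gene with 1 AS UMI is at 12 CPM.

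The lowest genes relative to AS were those of macrophages, neutrophils and red cells. C1qc, Ngp, Wfdc17, C1qa, S100a8, C1qb, Ms4a7, S100a9, Spp1, Ctss, Hbb-bs, Clec4e, Ccl4, Retnlg and Alox5ap were the 15 lowest. S100a8 and S100a9, genes of calprotectin, stood at 2503 and 2946 CPM in AS members and 15.2 and 29.1 CPM in MTZ-preventive members. Spp1, which encodes osteopontin, stood at 4933 and 62.3 CPM. The same genes differed between the libraries outside the members, with S100a8 at 768 and 17.6 CPM in the Dcn cells and Spp1 at 7478 and 116 CPM. In members with fewer than 2 macrophage and neutrophil genes, 13 in AS and 400 in MTZ-preventive, S100a8 was at 27.4 and 5.81 CPM and Spp1 at 27.4 and 64.6 CPM, where 27.4 CPM is 1 UMI. A count of 0 in those 13 AS cells allows up to 82.3 CPM, so their levels cannot be compared, and how much of the difference was RNA of other cells was not tested.

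Several inflammatory and matrix genes were higher in MTZ-preventive members, among them Mmp3 and Timp1, the 2 of 9 metalloproteinase and inhibitor genes past the minimum that were at least 2-fold higher, where the share over all genes was 9.32%. Mmp3, whose product is stromelysin 1, was at 263 CPM in AS (165 to 399) and 1303 CPM in MTZ-preventive (1245 to 1363), a ratio of 4.95 (3.26 to 7.91). Ccl2 was at 371 and 1671 CPM (4.50-fold, 3.16 to 6.64), Cxcl1 at 204 and 881 CPM (4.33-fold, 2.69 to 7.45) and Tnfaip6 at 239 and 1024 CPM (4.28-fold, 2.76 to 7.02). Has1, a hyaluronan synthase gene, was at 120 and 726 CPM (6.07-fold, 3.28 to 12.7), and Timp1, an inhibitor of metalloproteinases, at 527 and 1769 CPM (3.36-fold, 2.49 to 4.63). In the Dcn cells of AS and MTZ-preventive, Mmp3 stood at 332 and 408 CPM, Ccl2 at 441 and 713 CPM, Tnfaip6 at 252 and 436 CPM, and Has1 at 189 and 377 CPM. Mmp3 in members was thus 3.19-fold the Dcn cells in MTZ-preventive (3.02 to 3.37) and 0.793-fold in AS (0.487 to 1.23). Whether the difference in members exceeds that in the Dcn cells was not tested. In MTZ-preventive 1 cell held 13.9% of the Mmp3 UMIs and 1 cell 16.5% of those of Ccl2.

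Among the 15 highest genes by ratio, Cpxm1, Ptx3, Cxcl10, Kdm6b, Ptbp1, Tulp4, Fosl1 and Cthrc1 had 1 AS UMI each, Col6a1, Medag and Dpysl3 had 2, and Gem and Csrnp1 had 4. Ctla2a, a protease inhibitor gene, had 11 AS UMIs (132 CPM) and 1825 MTZ-preventive UMIs (1264 CPM), of which 1 cell held 31.4%. Ptx3, which encodes the soluble pattern receptor pentraxin 3, was at 12 CPM in AS (0.303 to 66.7) and 166 CPM in MTZ-preventive (146 to 189). Cpxm1, a carboxypeptidase-like gene, was at 301 CPM in MTZ-preventive (274 to 331).

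Among acute-phase genes, Saa3, Lcn2 and Hp stood higher in AS members and Serpina3n and Il6 higher in MTZ-preventive members. Saa3 was at 4862 CPM in AS (4400 to 5358), or 1686 CPM without the deep cell, and at 296 CPM in MTZ-preventive (268 to 325). Lcn2, which encodes the iron-siderophore-binding protein lipocalin 2 and is also a neutrophil gene, was at 2838 and 324 CPM. Hp was at 4646 and 1480 CPM, 3.14-fold higher in AS (2.81 to 3.50). Serpina3n went the other way, 1.31-fold higher in MTZ-preventive (1.14 to 1.5). Of the 16 acute-phase genes, 9 passed the minimum, of which Il6 was at least 2-fold higher in MTZ-preventive and Hp, Saa3 and Lcn2 at least 2-fold lower, beside 9.32% and 9.98% of all genes. The 1 higher gene of 9 is near that share. Il6 rests on 4 AS UMIs.

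These counts by list stand beside 9.32% higher and 9.98% lower over all 1363 genes, and they describe the lists without a test. In MTZ-preventive, 7 of 13 inflammatory and NF-kB feedback genes past the minimum were at least 2-fold higher (Tnfaip3, Tnfaip6, Cxcl1, Ccl2, Il6, Ptgs2 and Icam1) and 2 lower (Tnfaip2 and Zc3h12a), with a median log2 ratio of 1.04 against -0.08 over all genes. Of 10 chemokine genes, Ccl2, Ccl7, Cxcl1, Cxcl10 and Cxcl14 were higher and Ccl4, Ccl19 and Cxcl2 lower. Among 13 pan-fibroblast genes 6 were higher, Col1a1, Dpt, Serpinf1, Mfap5, Col6a1 and Col6a2, and 0 lower. All 6 macrophage and all 4 neutrophil genes past the minimum were lower. They passed it through AS alone, as the highest in MTZ-preventive members were Lyz2 at 19.4 CPM and S100a9 at 29.1 CPM. A gene that passes through 1 library alone can only be called in that direction, so this count says nothing further. In the same way Cxcl10, Col6a1 and Il6, with few AS UMIs, passed through MTZ-preventive alone. Of 14 complement genes 10 passed, and C4b alone was past 2-fold, lower in MTZ-preventive. All 12 immediate early genes and 9 of 10 heat shock genes passed, and of these Nr4a1 and Zfp36 alone were past 2-fold, both higher in MTZ-preventive. The heat shock genes nevertheless had a median log2 ratio of 0.69 and summed to 4167 CPM in AS members and 7030 CPM in MTZ-preventive members (1.69-fold, 1.52 to 1.88), and they were also higher in the other cells of MTZ-preventive, at 8128 CPM against 4955 CPM in AS. Such genes respond to cell handling among other stresses, and their part in the differences of inflammatory genes was not tested.

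**Figure D5:**
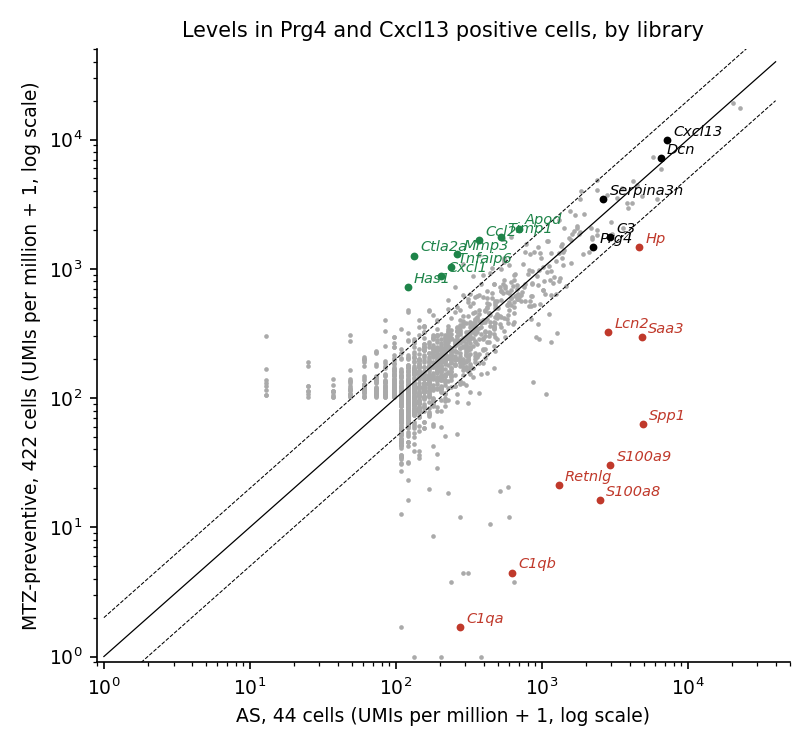
Levels (CPM + 1, log scales) of 1363 genes in the 44 AS members (horizontal) and the 422 MTZ-preventive members (vertical), with lines at equality and at 2-fold. S100a8, S100a9, C1qa, C1qb, Spp1 and Retnlg lie far below the lines, Mmp3, Ccl2, Cxcl1, Tnfaip6 and Has1 above, and Cxcl13, Dcn, Serpina3n and C3 between them.

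The genes of B cell attraction and lymphoid stroma were examined since Cxcl13 belongs to them. Cxcl13 lay at 7256 CPM in AS (6690 to 7858) and 9877 CPM in MTZ-preventive (9716 to 10041), a measure that the rule used. Cxcl12, which holds B cell and myeloid precursors, was at 946 and 752 CPM, and Ccl19, a CCR7 ligand, at 335 and 145 CPM. Ccl21a, the other CCR7 ligand, had 0 and 28 UMIs, and Madcam1 was at 0 in both. Tnfsf13b, which encodes the B cell survival factor BAFF, had 3 and 48 UMIs (35.9 and 33.2 CPM). Pdpn, which encodes podoplanin of stromal cells, was at 108 CPM in AS (49.3 to 205) and 123 CPM in MTZ-preventive (106 to 143). Vcam1 stood at 47.9 and 54.7 CPM, below the 217 and 90.9 CPM of the Dcn cells.

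Lymphocyte receptors were rare on the member barcodes, but the rule itself favoured this, as it removed cells with Ptprc. The other cells still held such cells. In MTZ-preventive, 21.8% of Ptprc-positive cells had a B cell receptor contig and 15.5% a T cell receptor contig. The comparisons with other cells below therefore describe the rule and say nothing further about the members. A B cell receptor contig was listed for 0 of 44 AS members (0 to 8.04%) and for 7 of 422 MTZ-preventive members (1.66%, 0.669 to 3.39%), against 1.58% and 10.9% of other cells. A T cell receptor contig was listed for 0 and 1 (0.237%), against 0.0464% and 3.59% of other cells. The carbonic anhydrase genes, which encode the targets of MTZ, were low. Car3, one of the 8 adipocyte genes of the rule, was at 35.9 CPM in AS members and 63.7 CPM in MTZ-preventive members, against 3635 and 2266 CPM in adipocyte-marker cells. Over 11 other genes of the family the sum was 59.9 CPM in AS members, where 2 had UMIs, and 56.1 CPM in MTZ-preventive members, where 8 had. Car4 had 4 UMIs (47.9 CPM) in AS and 16 (11.1 CPM) in MTZ-preventive, and Car2 had 0 and 5.

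Each of the 3 MTZ-treated members had a Dcn UMI and at least 3 fibroblast genes, and none had a UMI of the 17 macrophage and neutrophil genes. With 10037 UMIs in all, a count of 0 allows up to 299 CPM in them, so no further level was compared.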

How the data were processed

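Per the file headers, the authors counted the deposited values with Cell Ranger 5.0.0. The labels also name STAR and mm10. The deposited matrices hold raw UMI counts per gene and called barcode from 10x 5' libraries, and the receptor files list productive contigs. Total counts over filtered cells were 35008819 (untreated), 3870386 (AS), 16740509 (MTZ-treated) and 43389268 (MTZ-preventive). Counts were summed over cells and divided by their total UMIs (CPM), with a pseudocount of 1 CPM for log2 ratios. Intervals were exact (Clopper-Pearson, Poisson, conditional binomial). Depth was equalised for shares by thinning to 1000 UMIs (seed 1). The members, gene lists and comparisons were chosen with earlier results of these data known, and alternatives with fewer leukocyte genes, at least 10 Cxcl13 UMIs, Dcn cells and no deepest AS cell after seeing the data. Named genes were those of the lists, the 25 leading genes, the 15 highest and 15 lowest MTZ-preventive to AS ratios and the 15 most abundant genes, without mitochondrial, ribosomal, immunoglobulin and unnamed genes. Doublets were called per library from simulated pairs, in a number set in advance by the filtered cells of the library, but kept in the main results. The study's further limits on complexity and hemoglobin were not part of the rule. Python 3.11.15, numpy, scipy, R 4.3.3 and edgeR 4.0.16 (TMM factors only) were used, and ratios and thinning were tested on simulated counts.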

Additional observations from a re-analysis of the deposited data

How the results depend on the processing

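No paired analysis was possible because each condition had 1 library, so no library could be left out either. The AS share moved from 2.0% to 3.54% with Prg4 at 1 UMI, 1.0% at 4, 6.41% without a Cxcl13 minimum, 1.32% with Cxcl13 at 2, 1.22% with over 500 UMIs and under 20% mitochondrial UMIs, and with fewer than 2 macrophage and neutrophil genes to 0.591% where this limited the members alone and 1.3% where it limited the denominator too. In the same order, except for these last values, the MTZ-preventive share moved from 2.59% to 5.38%, 1.07%, 4.98%, 2.15% and 2.15%. It was 3.74% without limits on Ptprc and Pecam1, 1.46% when thinned first, 2.33% without doublets and 2.92% over cells lacking Ptprc. MTZ-treated moved to 0.139% with Prg4 at 1 UMI and 2.51% without a Cxcl13 minimum, and the library labelled untreated to 0.0324% without it. The MTZ-preventive to AS share ratio became 0.778 without a Cxcl13 minimum, 0.892 when thinned and 2.03 with few leukocyte genes in members and denominator. It was 4.15 where the limit on leukocyte genes applied to members alone, a value set by a filter that removes mostly AS members.

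The 127 higher and 136 lower genes became 252 and 63 with TMM, 4117 and 1658 with no minimum, 48 and 35 at 300 CPM, 223 and 270 with few leukocyte genes, and 197 and 410 at 10 or more Cxcl13 UMIs. Higher and lower genes were 205 and 170 with totals lacking mitochondrial, ribosomal protein and hemoglobin genes. They were 123 and 182 with the mean over cells in place of summed counts. In members with no adipocyte gene they were 175 and 188, and without doublets 122 and 143. Against Dcn cells 9 and 8 genes were past 2-fold, in place of 16 and 36. Without the deepest AS cell, an alternative added after seeing the data, these were 5 and 7, and the MTZ-preventive to AS counts 129 and 153. With few leukocyte genes the log2 ratios of Wfdc17 (1.67), C1qb (2.21), Spp1 (1.21), Ctss (1.96), Retnlg (1.29) and Alox5ap (1.67) reversed. Each rests on at most 1 UMI in the 13 AS cells left by a filter on leukocyte genes, which by its construction lowers such genes in AS, so these reversals say nothing about the genes. None of the 61 genes checked reversed under the other alternatives, but some were counted as moved. These were 21 with the mean over cells, 19 at 10 or more Cxcl13 UMIs and 15 in members with no adipocyte gene. There were also 13 without doublets, 11 with TMM and 8 without the deepest AS cell. With few leukocyte genes 29 were counted as moved and 6 as reversed. A count of 0 in members allows 299 CPM in MTZ-treated, 35.9 CPM in AS and 2.08 CPM in MTZ-preventive.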
